A study of Mus musculus with 12 samples.

Results

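The 6 genes Cpne7, Pde3b, Tmod2, Zdhhc21, Cep44 and Fbxo8 had more H3K27ac-marked length in every edKO heart than in any WT heart. They are 6 of 14317 protein-coding loci tested, and were chosen by their marked length in these same hearts, from among the loci with all edKO hearts above and the smallest unadjusted p. The marked length in edKO against WT hearts is therefore a description of the choice, and no p-value is given for it. A locus is a gene body extended by 10 kb both ways, and its marked length is the number of base pairs covered by called peaks. Cep44 and Fbxo8 are neighbours that share every called region, so the 6 genes make up 5 distinct loci.

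H3K27ac ChIP-seq had been run on whole mouse hearts at postnatal day 0. The edKO hearts (n = 3, numbered 1, 3 and 6) lack Rxra and Rxrb in cardiomyocytes, and the WT hearts (n = 3, numbered 1, 3 and 4) are labelled wild type. The labels name neither the Cre driver nor the strain, and the other cell types of an edKO heart keep both genes. Each heart is a single animal and has its own list of peaks, while the matched inputs have no list of their own.

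Acetylation of lysine 27 on histone H3 is laid down by the acetyltransferases p300 and CBP, and it marks active promoters and enhancers. A promoter often carries a broad peak over its start, and peaks also lie at distal elements. Rxra and Rxrb encode retinoid X receptors, which bind DNA with partner receptors and recruit coactivators that carry or attract acetyltransferases. In whole hearts, fewer marked cells of a type and less marking per cell cannot be told apart.

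The lists differed in length and in how wide their regions were. The edKO lists held 47971, 48274 and 67706 distinct regions in hearts 1, 3 and 6, and the WT lists 57976, 62882 and 66325 in hearts 1, 3 and 4. Over the 28395 regions called in all 6 hearts, the median length was 1689, 1252 and 1472 bp in the edKO hearts and 1603, 1598 and 1375 bp in the WT hearts. Over these shared regions edKO 1 had the widest calls of the 6 hearts and edKO 3 the narrowest. Read depth per heart is unknown, and a region missing from a list was not called, which does not show that the mark was absent. The Rxra locus had 8682 to 18432 bp in edKO hearts and 11157 to 18868 bp in WT hearts, and the Rxrb locus 4246 to 5250 bp in edKO hearts and 5138 to 5323 bp in WT hearts, which does not check a deletion confined to cardiomyocytes. Of 14317 loci, limma called 0 higher (0.00%) and 15 lower (0.105%) in edKO hearts (adjusted p under 0.05). At an unadjusted p under 0.05, 284 were higher (1.98%) and 663 lower (4.63%).

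Every edKO heart lay above every WT heart in marked length at 96 loci (0.671%) and below every WT heart at 931 (6.50%). The count was 128, 1848 and 197 without edKO 1, 3 and 6, and 297, 420 and 140 without WT 1, 3 and 4. Leaving out a heart loosens the condition, so a rise is built in and does not show how firm the count of 96 is. With all 6 hearts, the count was 176 with the gene body alone and 51 with 50 kb on each side. After centring each heart on its mean over covered loci, 1018 loci (7.11%) lay above and 825 (5.76%) below. Among the 96, ordered by unadjusted p, the 6 genes took places 1 to 4, 7 and 8, and the loci at places 5 and 6 are not described here. Dnajc19, a gene of mitochondrial protein import, took place 9, the next below them, with 1890, 1468 and 1832 bp in edKO 1, 3 and 6, against 1356, 1292 and 1131 bp in WT 1, 3 and 4. Cep44 and Fbxo8, the last of the 6, had 3144, 2270 and 2933 bp in edKO 1, 3 and 6, against 2215, 2177 and 1970 bp in WT 1, 3 and 4.

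**Figure D1:**
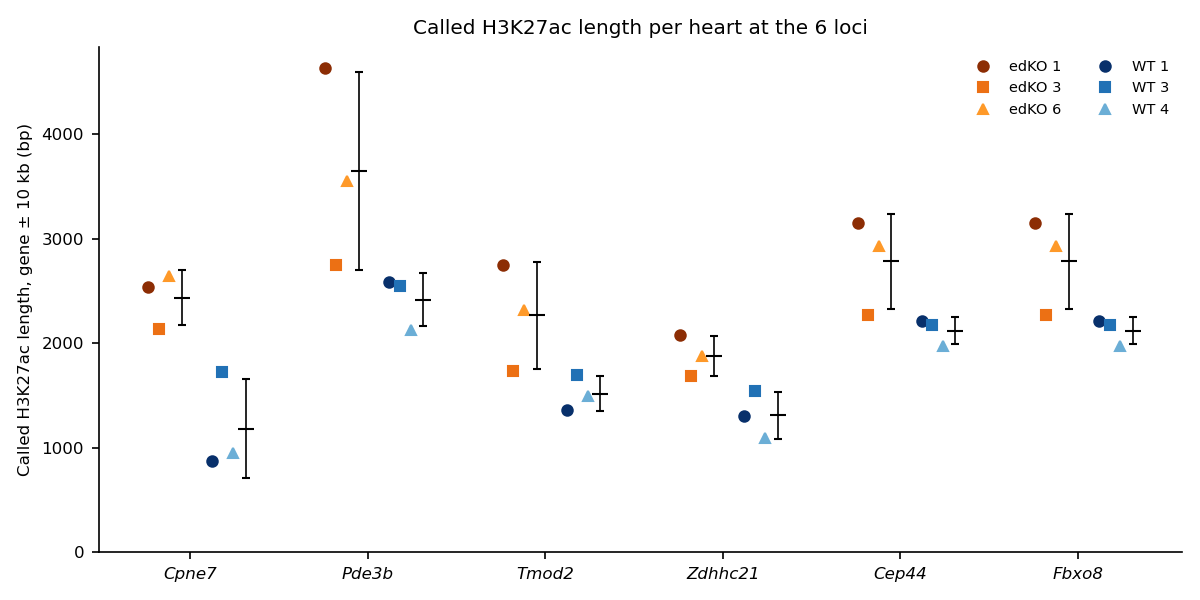
Base pairs covered by called H3K27ac peaks in each gene body extended by 10 kb both ways, per heart, with the edKO hearts left of the WT hearts at each gene. Bars give the mean and SD of 3 hearts, and edKO 3 is the lowest edKO heart at each gene, 34 bp above the highest WT heart at Tmod2 and 406 bp at Cpne7.

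Within the 5 loci, 17 distinct regions were called in at least 1 heart. Of these, 6 were called in all 6 hearts, 3 in some hearts of both genotypes and 8 in edKO hearts alone, and 0 in WT hearts alone. The 5 loci were chosen for more length in every edKO heart, which favours the third kind over the last. Over the whole lists, merged over the hearts, regions called in no WT heart were 6.62%, 2.97% and 14.8% of those of edKO 1, 3 and 6. Summed over the loci, the mean edKO hearts had 4456 bp more than the mean WT hearts. Regions called in all 6 hearts made up 2009 bp of that (45.1%), regions called in some hearts of both genotypes 1006 bp (22.6%) and regions called in no WT heart 1441 bp (32.3%). The balance differed from locus to locus and with the window. New regions held 59.7% of a difference of 2136 bp with the gene bodies alone, and 116% of 1168 bp with each region given to its nearest gene, where the other regions summed to less in edKO hearts. At the 96 loci with all edKO hearts above, the same split summed to 65.7%, 12.2% and 22.5%, with -0.466% from regions called in no edKO heart.

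**Figure D2:**
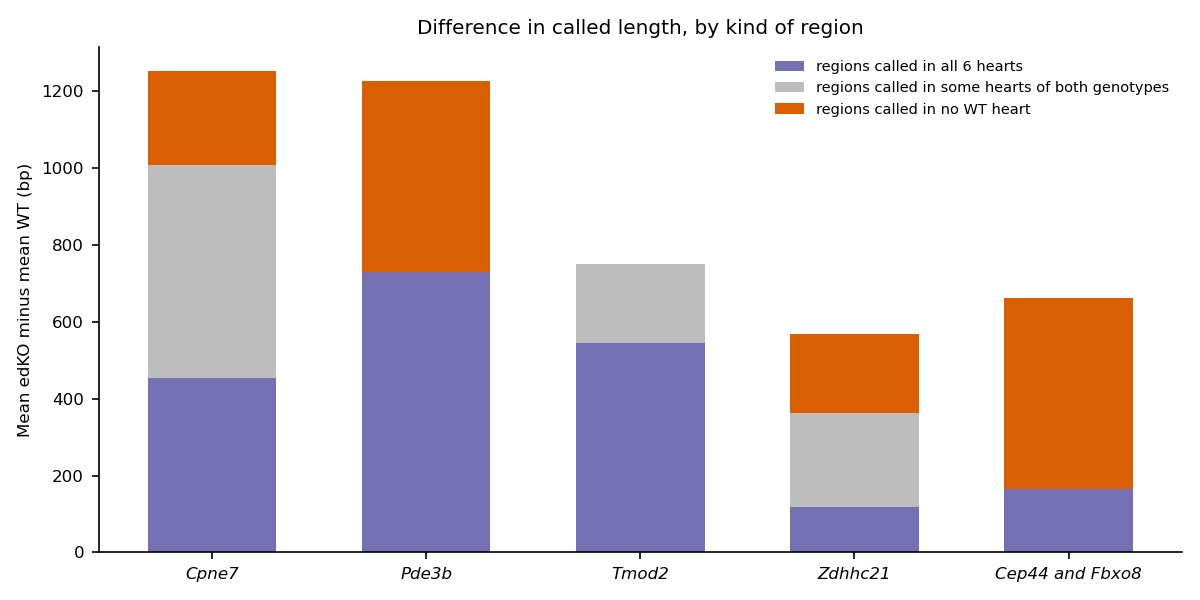
Mean called length in edKO hearts minus that in WT hearts, in base pairs, at each of the 5 loci, split by the hearts in which each region was called. New regions hold 75.0% of the difference at Cep44 and Fbxo8, 40.6% at Pde3b, and none of it at Tmod2.

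Pde3b encodes a cyclic AMP phosphodiesterase that cyclic GMP inhibits and that carries the effect of insulin on fat breakdown in adipocytes. The gene body spans chr7:114415222-114537938 (mm10). Its locus had 4634, 2750 and 3546 bp in edKO 1, 3 and 6, against 2584, 2542 and 2125 bp in WT 1, 3 and 4. The groups did not overlap, and edKO 3 stood 166 bp above WT 1. On the scale of log2(bp + 200), centred per heart, the difference was 0.62 (SE 0.12).

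The wider region at Pde3b lies over the lower-coordinate end of the gene, at chr7:114414487-114416955. It covered 2469, 1880 and 2108 bp in edKO 1, 3 and 6, against 1592, 1706 and 1669 bp in WT 1, 3 and 4. All edKO hearts were wider there than all WT hearts, which held for 1.20% of the regions called in all 6 hearts. That share covers unselected regions, while this locus was chosen for its length in edKO hearts. The edges of the region lay further out in edKO hearts on both sides, on average by 223 bp on the left and 274 bp on the right. The nearest pair of hearts differed by 1 bp on the left and by 42 bp on the right. The region ranked high in every list, with fold enrichments (the authors' own values) at the 95.2, 90.5 and 95.8 percentile of the lists of edKO 1, 3 and 6 and at the 91.8, 92.6 and 92.8 percentile of those of WT 1, 3 and 4. These percentiles place a region within 1 list, and lists of different lengths do not compare through them.

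A second region called in all 6 hearts lies 39448 bp inside Pde3b, at chr7:114454670-114456002. It covered 1333, 870 and 775 bp in edKO 1, 3 and 6, against 992, 836 and 456 bp in WT 1, 3 and 4, and the groups overlapped. Its fold stood in the middle of the lists, at percentiles of 47.3 to 57.5 in edKO hearts and 25.8 to 48.4 in WT hearts. The 3 new regions of Pde3b all lie inside the gene. The first starts 1954 bp from the lower end, just beyond the wide region, and had 491 bp in edKO 1 and 317 bp in edKO 6. The other two were called in 1 heart each, with 346 bp in edKO 6 (chr7:114452778-114453123) and 341 bp in edKO 1 (chr7:114456384-114456724). The 3 regions ranked low to middling, at percentiles of 0.558 to 50.4, and edKO 3 had none of them. The log2 difference at Pde3b ran from 0.49 to 0.67 over 18 alternatives.

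**Figure D3:**
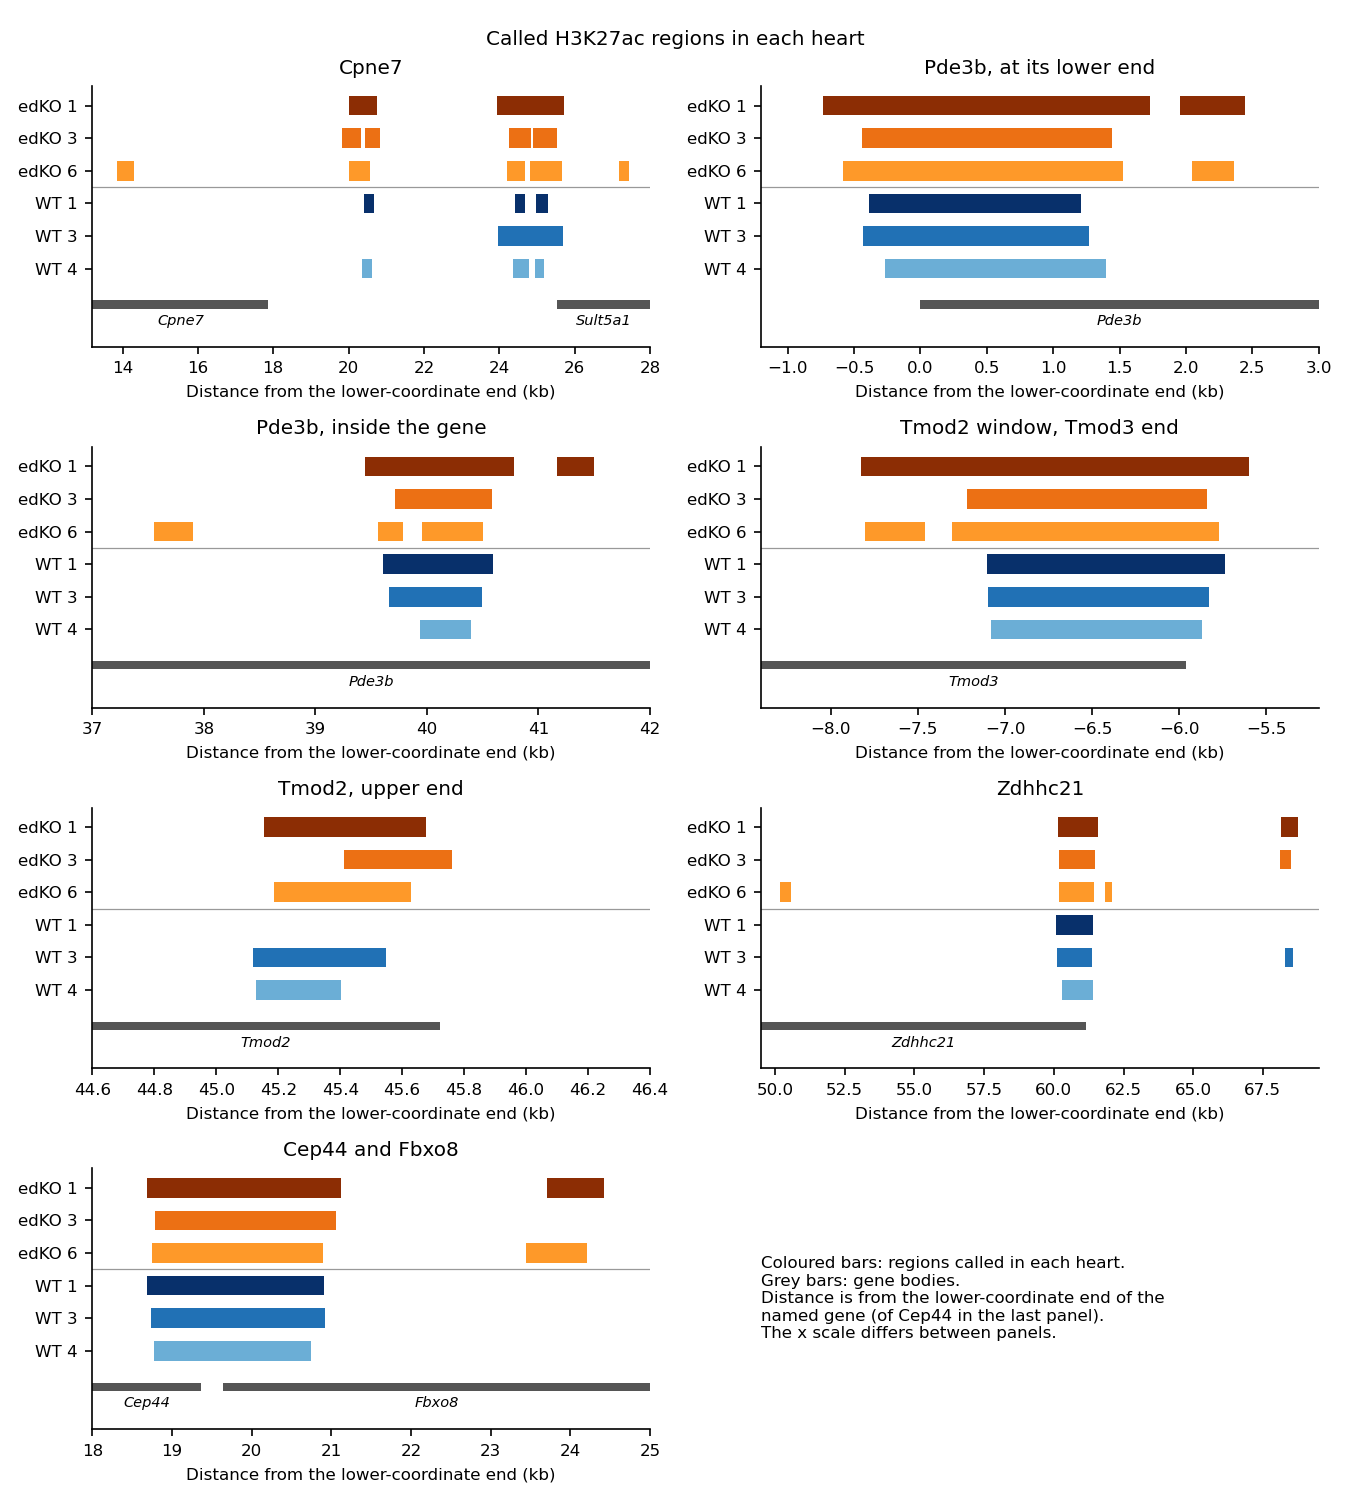
Regions called in each heart at the 5 loci, with edKO hearts above WT hearts and gene bodies in grey; the x axis is the distance in kb from the lower-coordinate end of the named gene. The regions over the end of Pde3b and over the end of Tmod3 reach further out in edKO hearts, while single short bars stand in edKO 1 or edKO 6 alone.

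Tmod2 encodes a tropomodulin of neurons, a protein that caps the slow-growing ends of actin filaments. The gene body spans chr9:75565621-75611342. Its locus had 2749, 1733 and 2321 bp in edKO 1, 3 and 6, against 1365, 1699 and 1491 bp in WT 1, 3 and 4. EdKO 3 stood 34 bp above WT 3, the smallest gap of the 6 genes. The log2 difference was 0.59 (SE 0.12).

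Most of that difference lies at the neighbouring gene. Of the 749 bp by which edKO hearts exceeded WT hearts, 545 bp (72.7%) came from a region at chr9:75557797-75560020 that overlaps the end of Tmod3, a widely expressed tropomodulin gene, and lies 5601 bp outside Tmod2. That region covered 2224, 1383 and 1877 bp in edKO 1, 3 and 6, against 1365, 1269 and 1215 bp in WT 1, 3 and 4. It was wider in every edKO heart, by 18 bp at the nearest pair, edKO 3 and WT 1. On the side inside Tmod3 the edge was 523 bp further out on average in edKO hearts, and every edKO edge lay beyond every WT edge by 118 bp or more. On the other side it was 74 bp further out on average, with overlap. In edKO 6 the region was 2 calls, 342 bp (chr9:75557818-75558159, percentile 34.8) and 1535 bp (chr9:75558315-75559849, percentile 95.5). The short call sets the edge of edKO 6 inside Tmod3, and of the other hearts only edKO 1 had a call over it. With the higher of those 2 calls, the fold of the region stood at percentiles of 89.4 to 95.5 in edKO lists and 89.5 to 92.4 in WT lists. The Tmod3 locus as a whole had 10765, 6458 and 8280 bp in edKO 1, 3 and 6, against 7699, 6820 and 6105 bp in WT 1, 3 and 4. Over that whole locus the genotypes overlapped.

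At Tmod2 itself, a short region at the upper end (chr9:75610740-75611381) had 525, 350 and 444 bp in edKO 1, 3 and 6, against 0, 430 and 276 bp in WT 1, 3 and 4. The groups overlapped, and no new region was called at the locus. This region ranked from the bottom to the middle of the lists, at percentiles of 0.15 to 45.1 in edKO hearts and 48.4 and 54.1 in the 2 WT hearts with a call. Of the 2 starts that RefSeq lists for Tmod2, the outer one is shown because the calls reach only its edge (250 bases before to 50 after the start at 75611325, minus strand, chr9:75611276-75611575, GRCm38.p6, RefSeq).

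Tmod2: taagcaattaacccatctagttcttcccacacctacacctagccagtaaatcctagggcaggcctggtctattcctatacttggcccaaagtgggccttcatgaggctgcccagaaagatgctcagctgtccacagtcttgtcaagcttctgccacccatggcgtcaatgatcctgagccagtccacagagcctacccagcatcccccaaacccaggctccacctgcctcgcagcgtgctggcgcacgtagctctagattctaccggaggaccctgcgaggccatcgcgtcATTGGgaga

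Capitals mark a CCAAT box, here on the opposite strand, and the window holds 9 CG pairs. Only 24 bases of it lay in called peaks in edKO 1 and 106 in edKO 3, against 0 in edKO 6 and in each WT heart. The inner start, at 75599133, had no called base in any heart. With stricter lists the log2 difference at Tmod2 was 0.31 and with 50 kb on each side 0.37, with overlapping groups in both, and with the gene body alone or each region given to its nearest gene the locus had too little length to be tested.

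Cpne7 encodes a copine, one of a family of proteins that bind phospholipids in the presence of calcium. The gene body spans chr8:123117313-123135185. Its locus had 2535, 2134 and 2638 bp in edKO 1, 3 and 6, against 876, 1728 and 948 bp in WT 1, 3 and 4. The mean was 2.06 times as long in edKO hearts (2436 ± 266 bp) as in WT hearts (1184 ± 472 bp, SD, n = 3 each), the largest ratio of the 6 genes, and the log2 difference was 1.06 (SE 0.20). WT 3 stood apart from WT 1 and WT 4.

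Inside the gene body the only region, 465 bp at chr8:123131159-123131623, was called in edKO 6 alone. The other 3 regions lie beyond its upper end, toward or inside Sult5a1, a sulfotransferase gene. The one at chr8:123137147-123138157, between the genes and 1962 bp from Cpne7, had 760, 892 and 565 bp in edKO 1, 3 and 6, against 283, 0 and 266 bp in WT 1, 3 and 4. It was longer in every edKO heart and held 44.4% of the difference. Its fold ranked at percentiles of 19.3 to 61.6 in edKO lists and 3.95 and 28.6 in those of WT 4 and WT 1.

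The region at chr8:123141253-123143027, over the end of Sult5a1 away from its RefSeq start, was called in all hearts. It had 1775, 1242 and 1343 bp in edKO 1, 3 and 6, against 593, 1728 and 682 bp in WT 1, 3 and 4. WT 3 lay within the edKO hearts, and WT 1 and WT 4 below them. The last region, 265 bp inside Sult5a1 (chr8:123144488-123144752), was called in edKO 6 alone. The Sult5a1 locus shares the 3 outer regions and was separated too, with 3069, 3090 and 3919 bp in edKO 1, 3 and 6, against 1264, 2601 and 1509 bp in WT 1, 3 and 4. With the gene body alone Cpne7 had too little length to be tested. Its log2 difference was 1.71 with each region given to its nearest gene, 1.64 at equal list length and 1.60 with stricter lists, where the groups overlapped, against 0.64 with 50 kb on each side.

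Zdhhc21 encodes a palmitoyltransferase, an enzyme that attaches palmitate to cysteines of other proteins. The gene body spans chr4:82798738-82859897. Its locus had 2074, 1686 and 1873 bp in edKO 1, 3 and 6, against 1305, 1538 and 1089 bp in WT 1, 3 and 4. EdKO 3 stood 148 bp above WT 3, and the log2 difference was 0.55 (SE 0.12). The promoter is shown because all hearts marked it (start at 82859673, minus strand, chr4:82859624-82859923).

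Zdhhc21: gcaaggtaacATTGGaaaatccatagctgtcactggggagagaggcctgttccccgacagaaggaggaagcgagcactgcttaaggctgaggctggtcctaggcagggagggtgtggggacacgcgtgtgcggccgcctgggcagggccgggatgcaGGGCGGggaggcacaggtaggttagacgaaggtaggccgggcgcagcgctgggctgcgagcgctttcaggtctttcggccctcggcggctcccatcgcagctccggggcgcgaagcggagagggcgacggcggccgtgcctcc

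Capitals mark a CCAAT box on the opposite strand and a GC box (GGGCGG), and the window holds 26 CG pairs. All 300 bases lay in called peaks in each of the 6 hearts. The region over it (chr4:82858833-82860337) had 1454, 1293 and 1263 bp in edKO 1, 3 and 6, against 1305, 1262 and 1089 bp in WT 1, 3 and 4. The groups overlapped by width, and only the edge outside the gene lay beyond that of all WT hearts in each edKO heart, by at least 47 bp. This region gave 118 bp of the difference of 567 bp (20.8%).

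The rest of the difference at Zdhhc21 came from small regions that differed from heart to heart. A region 6957 bp from the gene (chr4:82866854-82867491) had 620, 393 and 0 bp in edKO 1, 3 and 6, against 0, 276 and 0 bp in WT 1, 3 and 4, and made up 43.3%. EdKO 6 lacked it, and had instead 2 regions of its own, 380 bp inside the gene and 230 bp at 684 bp from its end. EdKO 1 and edKO 3 thus shared the distant region, and edKO 6 had others. The log2 difference was 0.21 with the gene body alone and 0.22 with stricter lists, and it turned to -0.18 with each region given to its nearest gene, which takes in regions up to 100 kb away; in these 3 settings the groups overlapped.

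Cep44 encodes a protein of centrosomes and centrioles, and Fbxo8 a protein with an F-box, which links substrates to ubiquitin ligases, and a Sec7 domain, found in activators of ARF GTPases. Both had 3144, 2270 and 2933 bp in edKO 1, 3 and 6, against 2215, 2177 and 1970 bp in WT 1, 3 and 4 (log2 difference 0.44, SE 0.10). The groups did not overlap, with edKO 3 at 55 bp above WT 1. The gene bodies, chr8:56531516-56550876 and chr8:56551154-56593939, are 277 bp apart, and their listed starts are 588 bp apart and point away from each other. Both promoters lie under a single region and are shown for that reason (chr8:56550517-56550816, minus strand, for Cep44 and chr8:56550904-56551203, plus strand, for Fbxo8, each written along its own gene).

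Cep44: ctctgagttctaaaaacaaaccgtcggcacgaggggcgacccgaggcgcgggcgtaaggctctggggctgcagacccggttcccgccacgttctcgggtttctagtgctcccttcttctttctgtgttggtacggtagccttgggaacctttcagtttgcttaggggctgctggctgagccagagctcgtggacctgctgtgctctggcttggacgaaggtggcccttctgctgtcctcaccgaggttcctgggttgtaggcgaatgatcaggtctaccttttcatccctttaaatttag

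Fbxo8: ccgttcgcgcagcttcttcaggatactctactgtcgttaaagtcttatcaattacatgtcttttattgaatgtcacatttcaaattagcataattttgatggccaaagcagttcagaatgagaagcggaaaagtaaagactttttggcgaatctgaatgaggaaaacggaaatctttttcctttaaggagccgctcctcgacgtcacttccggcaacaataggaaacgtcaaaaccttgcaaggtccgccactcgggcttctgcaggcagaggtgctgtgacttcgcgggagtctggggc

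Neither holds a match to the motifs searched, so no base is in capitals, and they have 17 and 16 CG pairs. All 300 bases of each were covered in each of the 6 hearts. The region over both (chr8:56550206-56552634) had 2429, 2270 and 2160 bp in edKO 1, 3 and 6, against 2215, 2177 and 1970 bp in WT 1, 3 and 4. The groups overlapped, since edKO 6 was narrower than WT 1 and WT 3. The mean edge was 169 bp further out in edKO hearts on the Fbxo8 side, with overlap, and near that of the WT hearts on the Cep44 side.

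The larger share of the difference, 496 of 662 bp (75.0%), came from a new region inside Fbxo8, 3805 bp from its start (chr8:56554959-56555941). It had 715 bp in edKO 1 and 773 bp in edKO 6, against 0 bp in edKO 3 and in each WT heart. Its fold ranked at the 2.19 percentile in edKO 1 and the 16.2 percentile in edKO 6. With stricter lists that region was gone, and the log2 difference was 0.17 at both genes with overlapping groups. It was 0.07 at Cep44 and 0.61 at Fbxo8 with each gene body alone, and at Fbxo8 0.29 with 50 kb on each side and 0.22 with each region given to its nearest gene, both with overlap.

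Across the promoters, the motifs searched on both strands were AGGTCA, the half-site of nuclear receptors, the GC box GGGCGG and the CCAAT box CCAAT. They do not overlap one another in these windows. RefSeq gave 5 windows for 4 of the 6 genes, 2 of them for Tmod2, and Cpne7 and Pde3b had no entry. AGGTCA was in 0 of the 5 windows and in 16.3% of all 32851 windows, GGGCGG in 1 and in 35.7%, and CCAAT in 2 and in 37.4%. No match says only that these letters are not in the window.

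The regions called in edKO hearts alone were short, ranked low and rested on 2 hearts. Of the 8 regions, 6 were called in 1 edKO heart, 2 in 2 hearts and 0 in all 3. EdKO 6 had 7 of the 10 calls (2776 bp), edKO 1 had 3 (1547 bp) and edKO 3 had 0. The calls were 230 to 773 bp long (median 363 bp), against 456 to 2469 bp (median 1374 bp) for regions called in all 6 hearts. Their fold percentiles ran from 0.558 to 60.4 (median 19.0), against 16.9 to 95.8 (median 89.5) for the regions called in all hearts. The classes are set by which hearts called a region, which favours strong, wide regions among those called in all, so this contrast is partly built in. The percentiles are also pooled over lists of different lengths.

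The order of the hearts was the same over the whole lists. Of 10629 regions called in edKO hearts alone, 7660 were called in edKO 6, 2769 in edKO 1 and 1067 in edKO 3, and 92.4% were called in a single heart. At least 1 such region lay in the windows of 5 of the 6 genes, with Cep44 and Fbxo8 sharing theirs, and of 32.8% of all loci tested. Among the 96 loci with all edKO hearts above, the share was 39.6%. The 6 genes were chosen for more length in edKO hearts, which favours such regions. At lists of equal length, 5 of the 10 calls were kept, and the groups were then separated at Cpne7 and Pde3b but overlapped at the other 4 genes. The part of new regions in the difference was 774 bp without edKO 6 and 2162 bp without edKO 3, against 1441 bp with all hearts.

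**Figure D4:**
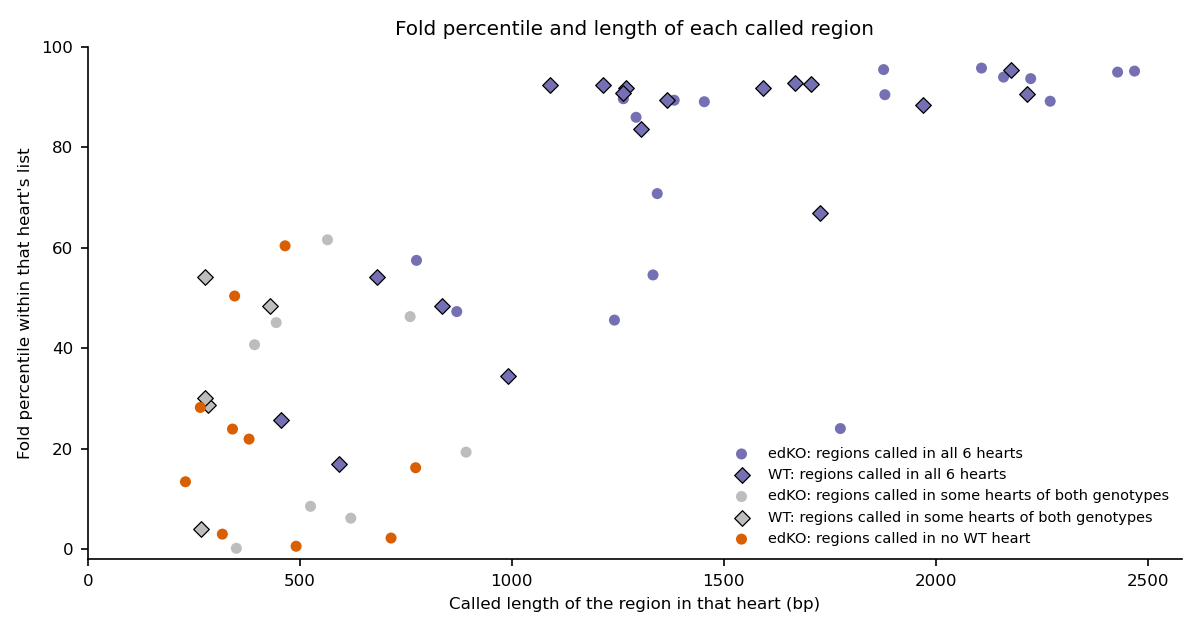
Each point is a region called in a heart, with its called length in base pairs on the x axis and the percentile of its fold enrichment within that heart's list on the y axis. Regions called in no WT heart stay at or under 773 bp and a percentile of 60.4, while the regions called in all hearts reach 2469 bp and a percentile of 95.8 and include both genotypes.

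The wider regions can be set against how wide each heart's regions were as a whole. The loci were chosen for more total length in every edKO heart, and these regions are part of that length. The shares over the genome given here come from unselected regions, so no enrichment can be read from them. Of the 6 regions called in all hearts, 2 were longer in every edKO heart than in every WT heart, those over the ends of Pde3b and Tmod3, against 1.20% of such regions over the genome. After dividing each length by the heart's median over regions called in all hearts, a scaling chosen after seeing the data, 4 of 6 were separated, against 5.18%. The region of Pde3b was then 1.46, 1.5 and 1.43 times the median of edKO 1, 3 and 6, against 0.993, 1.07 and 1.21 times that of WT 1, 3 and 4. That of Tmod3 was 1.32, 1.10 and 1.28 times in edKO 1, 3 and 6, against 0.852, 0.794 and 0.884 times in WT 1, 3 and 4. These 2 regions were thus longer in each edKO heart than in each WT heart on both scales. The regions over Zdhhc21 and over Cep44 and Fbxo8 were separated only after scaling. At Pde3b, Tmod2, Cep44 and Fbxo8, and Zdhhc21, edKO 1 had the longest and edKO 3 the shortest total of the edKO hearts, which is also their order by median length of shared regions; the part of that general width in the differences was not tested.

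**Figure D5:**
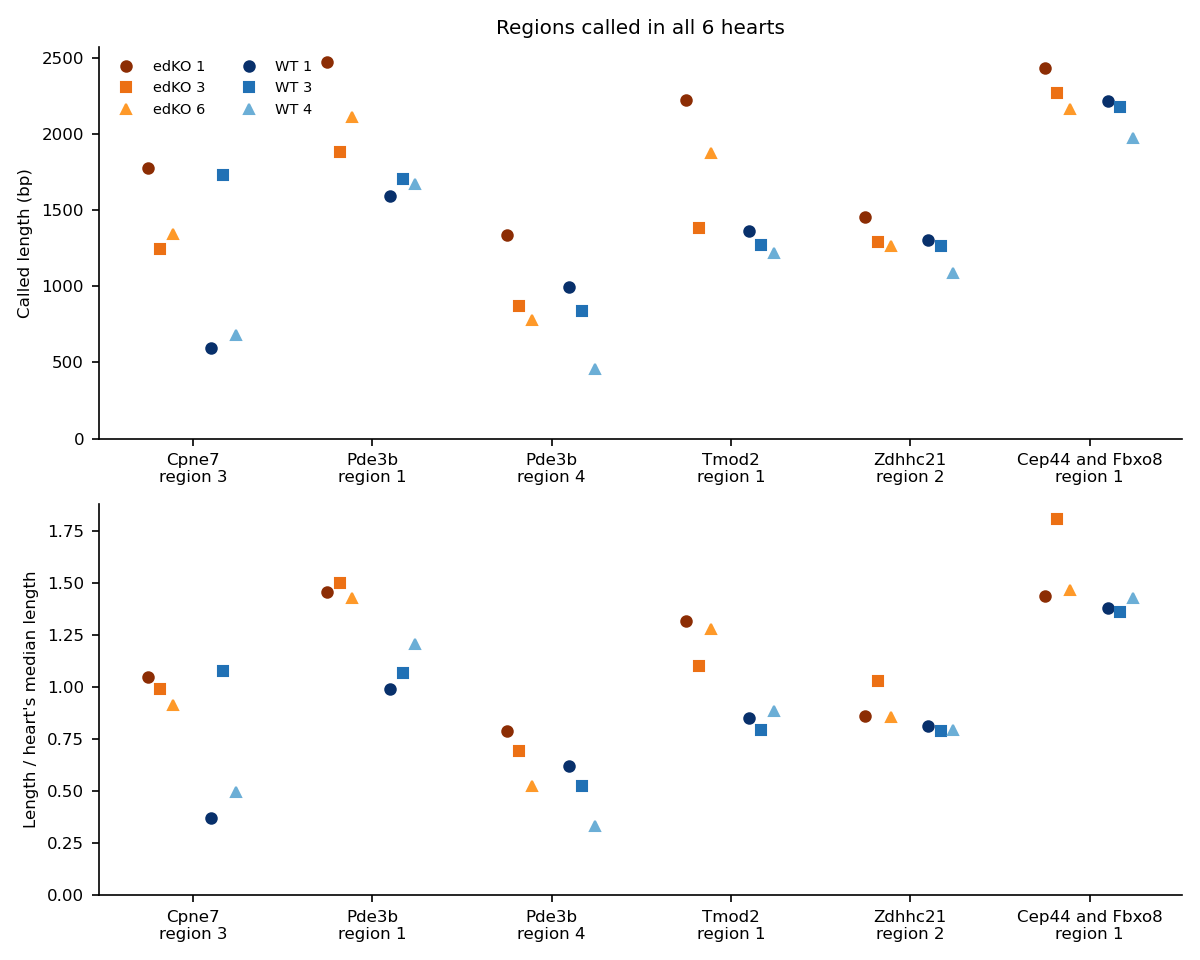
Called length of the 6 regions called in all hearts, in base pairs (top) and divided by the heart's median length over all such regions (bottom), with edKO hearts left of WT hearts; regions are numbered from low to high coordinate within a locus. Pde3b region 1 and Tmod2 region 1, which overlaps Tmod3, are separated in both panels.

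Relatives of the 6 genes were counted with the 6 genes among them, which were chosen in part by their unadjusted p. Over all loci tested, 1.98% were higher and 4.63% lower at an unadjusted p under 0.05 (limma). Without the 6 genes, the loci higher unadjusted were 1 tropomodulin or leiomodin, 3 F-box only and 1 CEP locus, and 0 in each other family. Loci of a family can share called regions, which these counts do not take into account. Of 7 copine loci tested, limma called 0 in either direction (1 at an unadjusted p under 0.05, Cpne7), and the median log2 difference was 0.01, against 0.03 over all loci. Cpne4 and Cpne6 had no called length in any heart, and those besides Cpne7 ran from Cpne5 (-0.79) to Cpne1 (0.14). Of 18 cyclic nucleotide phosphodiesterase loci, limma called 0 (1 higher, Pde3b, and 3 lower unadjusted), with a median of -0.07, and those besides Pde3b ran from Pde8b (-1.42, SE 0.79) to Pde10a (0.20). Of 7 tropomodulin and leiomodin loci, limma called 0 (2 higher unadjusted), with a median of 0.12. Tmod1, the tropomodulin of sarcomeres, had 22005, 14318 and 26655 bp in edKO 1, 3 and 6, against 28315, 26236 and 26789 bp in WT 1, 3 and 4, and overlapped (log2 difference -0.33), the lowest of that family. Tmod3 had the highest besides Tmod2, at 0.36.

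In the larger families the estimates lay on both sides of 0. Of 23 ZDHHC palmitoyltransferase loci, limma called 0 (1 higher, Zdhhc21, and 1 lower unadjusted), with a median of 0.05, and those besides Zdhhc21 ran from Zdhhc23 (-0.95) to Zdhhc1 (0.22). Of 33 F-box only loci, limma called 0 (4 higher and 1 lower unadjusted), with a median of 0.11. Those besides Fbxo8 ran from Fbxo21 (-0.86) to Fbxo2 (0.36). Besides Fbxo8, which was chosen by this measure, 3 had all edKO hearts above all WT hearts in bp, against 0.671% of all loci. In each other family 0 did so without the chosen genes. Fbxo2 was among those 3, with 2455, 2376 and 2956 bp in edKO 1, 3 and 6, against 2227, 2128 and 1939 bp in WT 1, 3 and 4. Whether those 3 share called regions was not checked. They may be fewer distinct loci, so no excess over the share of all loci can be read from them. Of 33 centrosomal CEP loci, limma called 0 (2 higher and 1 lower unadjusted), with a median of 0.05, and those besides Cep44 ran from Cep112 (-0.76) to Cep55 (0.31).

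Markers of the heart's cell types were set beside these values. Over all loci tested, 58.4% had an estimate above 0. The 14 cardiomyocyte marker loci were all marked enough to be tested, with estimates above 0 at 5 of them and a mean centred log2 length of 1.97 to 2.24 in edKO hearts and 2.07 to 2.11 in WT hearts. Estimates were above 0 at 10 of 11 fibroblast loci (mean level 0.20 to 0.56 in edKO hearts and -0.14 to 0.56 in WT hearts) and at 8 of 10 endothelial loci (1.25 to 1.52 in edKO hearts and 1.13 to 1.36 in WT hearts). They were above 0 at 6 of 9 smooth muscle and pericyte loci (-0.39 to 0.01 in edKO hearts and -0.70 to -0.04 in WT hearts) and at 4 of 5 adipocyte loci (-0.29 to 0.06 in edKO hearts and -0.32 to -0.03 in WT hearts). None of these lists had separated genotypes in its mean. Few leukocyte, erythroid and neural loci could be tested (3 of 10, 2 of 8 and 4 of 9). Ptprc, Adgre1, Lyz2 and Itgam, Hba-a1, Hbb-bs, Alas2 and Gata1, Sox10 and Th, and, of the adipocyte list, Lep and Retn had no called length in any heart. The mean level was -1.04 to -0.86 in edKO hearts and -1.07 to -0.94 in WT hearts for leukocytes, -1.26 to -0.62 in edKO hearts and -1.35 to -1.23 in WT hearts for erythroid cells, and -0.14 to -0.05 in edKO hearts and -0.41 to 0.07 in WT hearts for neural and Schwann cells. One marker had all edKO hearts above all WT hearts in bp, Epb42, a gene of the red cell membrane skeleton named after its values were seen. It had 702, 796 and 1507 bp in edKO 1, 3 and 6, against 671, 693 and 474 bp in WT 1, 3 and 4 (log2 difference 0.60, SE 0.29). Limma called 0 markers in either direction (1 endothelial marker higher unadjusted), and their part in the differences at the 6 genes was not tested.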

How the data were processed

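H3K27ac ChIP-seq peak lists of 3 edKO and 3 WT hearts were used; the 6 inputs have no list and were not used. Per the submitters' processing notes, MACS2, SAMtools, BWA and cutadapt were used, with mm10 and GRCm38 as builds; versions and settings were not given in the labels. The authors deposited 1 narrowPeak list per heart, so peaks were not called on pooled hearts. Its deposited coordinates are positions in bp, its signal is a fold enrichment (a ratio to background), its score is 10 times the −log10 q, and the remaining 2 value columns hold −log10 of the p-value and of the q-value. Fold was used only for ranks within a list.

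Entries were merged into regions, and regions overlapping by 1 bp or more into a union. RefSeq gene positions (GRCm38.p6) gave 21887 protein-coding windows of gene body ± 10 kb. Covered bp were taken as log2(bp + 200), centred per heart on the mean over loci covered in all hearts, kept at a mean of 500 bp or more, and fitted with limma 3.58.1 (R 4.3.3, trend, robust, Benjamini-Hochberg adjustment), a fit tested on simulated data. This scale understates differences at loci with little length. Alternatives were other windows, assignments, list thresholds and lengths, scalings, pseudocounts, filters, left-out hearts and a replicate block. Named genes are the 6 members, neighbours sharing regions, the extremes of 6 family lists and the loci most like each member; Dnajc19, Rxra, Rxrb and Dtd1 were added. Members and lists were chosen with earlier results of these data known. Python 3.11.15, numpy 2.4.6, pandas 2.3.3 and matplotlib 3.10.9 were used.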

Additional observations from a re-analysis of the deposited data

How the results depend on the processing

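Zdhhc21 was reversed, at -0.18, with each region given to its nearest gene; all other values at the 6 genes stayed above 0 where the locus could be tested. Log2 differences that moved by more than the spread between hearts were, with the gene body alone, 0.21 for Zdhhc21, 0.066 for Cep44 and 0.61 for Fbxo8; with 50 kb on each side, 0.64 for Cpne7, 0.37 for Tmod2 and 0.29 for Fbxo8; with the nearest gene, 1.71 for Cpne7 and 0.22 for Fbxo8. With stricter lists they were 1.60 for Cpne7, 0.31 for Tmod2, 0.22 for Zdhhc21 and 0.17 for Cep44 and Fbxo8; at equal list length, 1.64, 0.45 (Tmod2), 0.34 (Zdhhc21) and 0.26. Without centring Cep44 and Fbxo8 had 0.35, and with a pseudocount of 1000 bp the values were 0.74 (Cpne7), 0.43 (Tmod2), 0.39 (Zdhhc21) and 0.34 (Cep44 and Fbxo8). Cpne7 and Tmod2 with the gene body alone, and Tmod2 and Cep44 with the nearest gene, were too short to be tested. The causes were not tested.

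The count of lower loci was 31 with 50 kb, 9 with stricter lists and 6 at equal list length, against 15. Leaving out 1 heart at a time gave 0 to 9 (8, 4 and 9 without edKO 1, 3 and 6, and 2, 0 and 1 without WT 1, 3 and 4). With a replicate block, for the numbers 1 and 3 that both genotypes share, it was 90, 12 of them among the 15; that fit leaves little residual freedom, and deviations of same-numbered hearts correlated across loci at 0.179 and 0.0316, so the numbers were not taken as pairs. The count of higher loci was 0 to 1 without a single heart, and 0 in each other alternative. The 1 was Dtd1, called without WT 1 (limma adjusted p = 0.0408, log2 difference 1.46, SE 0.13, higher in 3 of 3 edKO hearts than in WT 3 and WT 4), against an adjusted p of 0.854 with all hearts; WT 1 had 6525 bp there. Summed new regions gave 774 to 2162 bp without a single heart (18% to 40.9% of the difference) and 786 to 1364 bp in the other settings (19.0% to 116%). With the widths scaled, the count of 2 separated regions became 4. Read depth per heart is unknown, so the limit it sets on calling short regions cannot be given.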

Other observations

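Leaving out loci that share regions or windows with a gene, such as Cep44 and Fbxo8 with each other, the loci whose lengths followed each gene most closely over the 6 hearts lay on other chromosomes. The highest Pearson correlations of centred log2 length were with Foxp3 (0.991) and Tor4a (0.987) for Cpne7, Parg (0.993) and Shroom1 (0.992) for Pde3b, and Cyb5r1 and Adipor1, which share their regions, for Tmod2 (0.996 each). They were with Zfp786 (0.994) and Top1mt (0.992) for Zdhhc21, and with Hsd17b1 (0.992) and Dnajc19 (0.988) for Cep44 and Fbxo8. Of 14317 loci, 105 to 154 per gene had a correlation over 0.9, and all loci of a heart come from a single list with its own length and widths. Each named locus was picked for its high correlation over only 6 hearts. The 6 genes were chosen by these same lengths, so a close match repeats their split between genotypes, and no link between the genes can be read from it. Adipor1, a receptor for adiponectin, had 5706, 3658 and 4898 bp in edKO 1, 3 and 6, against 3456, 3948 and 3487 bp in WT 1, 3 and 4, so that edKO 3 lay below WT 3 in bp. The correlations used centred log2 length instead, on which the order of the hearts can differ. Parg, which removes poly(ADP-ribose) chains, had 2673, 1743 and 2271 bp in edKO 1, 3 and 6, against 2077, 2098 and 1791 bp in WT 1, 3 and 4. At both, as at Pde3b and Tmod2, edKO 1 had the longest and edKO 3 the shortest total of the edKO hearts.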
